A study of Mus musculus with 6 samples.

Results

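The 10 genes Ddx58, Ifih1, Dhx58, Tlr3, Zbp1, Eif2ak2, Adar, Mavs, Tbk1 and Irf3 encode sensors of foreign or misplaced nucleic acids and the proteins that relay their signal. They were chosen by name, with earlier results of these data known. Each was matched to 1 of the 54886 Ensembl gene identifiers in the expression files through the gene names of GENCODE M21. Ddx58 is the older symbol of Rigi. The cells were GC-2spd, a cultured line derived from mouse spermatocytes with a BALB/c background, so that all samples come from 1 cell line. The PM2.5 group received 100 μg/mL of fine particulate matter (an urban dust reference material suspended in PBS) for 48 h. The control group received no particles. Its labels name normal medium, and the methods name PBS. RNA from 3 libraries per group was sequenced. Levels were given as FPKM, the fragments assigned to a gene per kilobase of its length, scaled between libraries. The study describes its quantitative data in general as coming from repeated experiments, and the labels do not say whether the sequenced replicates were separate cultures. The p-values below therefore set the group difference against the spread between these libraries, which may be technical.

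In most cell types, RNA with a triphosphate end or a double strand is bound in the cytosol by RIG-I (encoded by Ddx58) or MDA5 (Ifih1), and both signal through the mitochondrial adaptor MAVS. The kinase TBK1 then phosphorylates the transcription factor IRF3, which switches on type I interferon. Interferon in turn raises the transcription of most of the sensors themselves, including Ddx58, Ifih1, Dhx58, Tlr3, Zbp1, Eif2ak2 and the long form of Adar, whereas Mavs, Tbk1 and Irf3 are known as largely constitutive genes.

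The 6 libraries held between 16209352 and 18003200 reads that could be recovered from the FPKM, and fewer than 3 reads in a library were taken as not detected. These limits cover counting error only. Control replicate 2 stood apart from the other libraries. Across the 11884 genes tested, which are not independent replicates, its Pearson's r of log2(FPKM + 1) with the other 5 libraries lay between 0.732 and 0.779, against 0.950 to 0.992 among those 5. Mitochondrial genes held 14.5% of its reads and 1.65% to 1.95% of the reads elsewhere. The main results are therefore given with and without control replicate 2, and the latter rest on 2 control and 3 PM2.5 libraries. The 9 markers of male germ cells were hardly expressed. All 9 lay under a mean FPKM of 1, Dazl and Spo11 had 0 reads in every library, and the summed FPKM of the list was 1.05 to 3.38 in the control group and 0.304 to 0.969 in the PM2.5 group. Of 7 macrophage markers, Ptprc, Adgre1 and Itgam had 0 reads in every library. The summed FPKM of this list was 15.5 in control replicate 2, all of it from Cd68, and 1.13 to 2.504 in the other libraries. The summed FPKM of 6 Sertoli cell markers was 0.762 to 3.66 and that of 5 Leydig cell markers, mostly Star, was 1.70 to 2.49 over the 6 libraries. The part of these marker levels in the results was not tested.

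Compared with the control group, the sensors that interferon is known to induce had lower mean levels in PM2.5-exposed cells. The signaling genes Mavs and Tbk1 did not follow. Irf3, the other signaling gene, was also lower. Its fold change exceeded those of Tlr3 and Adar with all libraries, and was smaller than those of all 7 inducible genes without control replicate 2. With all 6 libraries, the log2 fold changes from limma of the 7 inducible genes lay between -2.41 (Dhx58) and -0.56 (Tlr3), and they were 0.81 for Mavs, 0.04 for Tbk1 and -0.79 for Irf3. None of the 10 genes was differentially expressed in this fit, defined as a Benjamini-Hochberg adjusted p-value under 0.05 over all genes tested and an absolute log2 fold change above 1. By the same definition, 0.0926% of all genes were differentially expressed, 0.0589% lower and 0.0337% higher. Below, a gene is said to have fallen or risen where it met this definition with a lower or higher level. Zbp1 passed the filter on low values (a mean FPKM of at least 1) only through its control libraries and is left out of the next counts, which cover the other 9 genes. An unadjusted p-value under 0.05 with a lower level was found for 4 of the 9 genes, against 1.88% of all genes. In 5 of the 9 genes every PM2.5 library lay below every control library, which held for 6.85% of all genes. The reverse, with every PM2.5 library above every control library, held for 0 of the 9 genes and for 8.35% of all genes. Without control replicate 2, Ddx58, Ifih1, Dhx58 and Eif2ak2 fell, which makes 4 of the 9 genes, whereas 0.547% of all genes fell, 0.16% rose and 0.707% did either. The number with a lower level at an unadjusted p-value under 0.05 was then 6 of 9, against 7.63% of all genes, and 0 of 9 had a higher level, against 8.23%. The groups separated with the PM2.5 libraries lower in 7 of the 9 genes, all but Mavs and Tbk1, and in 19.6% of all genes. The median log2 fold change of the 9 genes was -0.79 with all libraries and -1.005 without control replicate 2, and that of all genes was 0.02 and -0.01. As the genes were chosen with earlier results of these data known, these comparisons with all genes are a description. As the RNA came from bulk cultures, fewer cells that express a gene and less RNA per cell cannot be told apart.

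**Figure D1:**
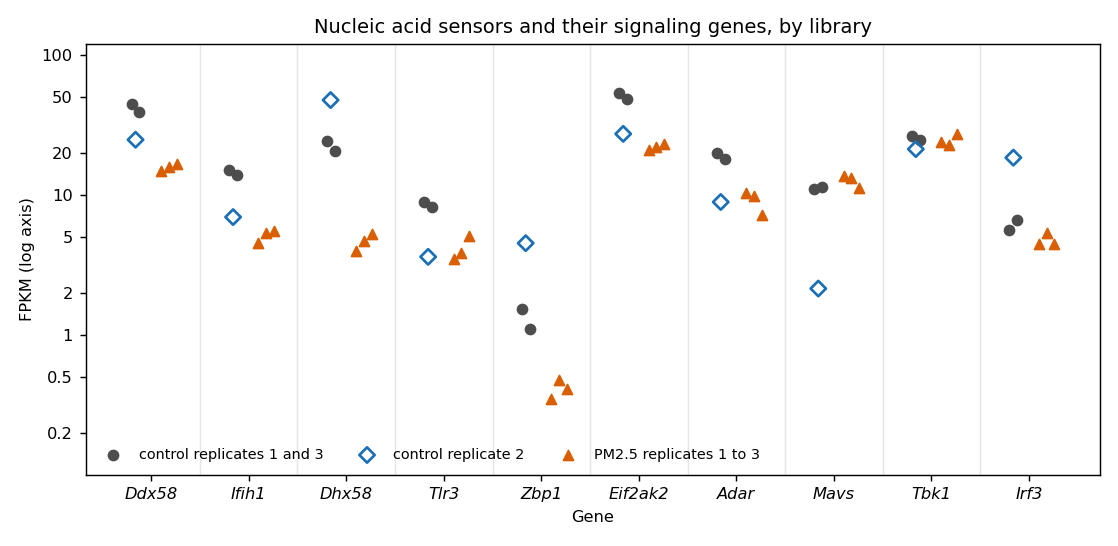
FPKM (log axis) of each gene in every library. Gray circles are control replicates 1 and 3, open blue diamonds control replicate 2, and orange triangles the 3 PM2.5 libraries. The PM2.5 libraries of Dhx58 lay between 3.95 and 5.29, below all control libraries (20.5 to 47.7), whereas the groups of Tbk1 overlapped.

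To show what the promoters of these genes have in common, sequence around the start sites was taken from RefSeq (GRCm38.p6), from 250 bases before to 50 bases after each start. Promoters were found for 8 of the 10 genes, not for Dhx58 and Zbp1, and for Adar at 3 start sites. They were searched on both strands for GAAA repeats, that is GAAA followed by any 2 bases or any 1 base and then GAAA, as found in interferon-stimulated response elements, and for GCGTG, the core of the element bound by the aryl hydrocarbon receptor (AhR). These motifs were chosen after the sequences had been seen. At least 1 of the GAAA repeats occurred in 4 of the 10 promoters, those of Ddx58, Ifih1, Eif2ak2 and the third start site of Adar, and in 6.27% of all 32851 promoters. The repeat with 2 bases between occurred in 3.44% of all promoters and that with 1 base in 3.17%. Of these 4 genes, Ddx58, Ifih1 and Eif2ak2 fell without control replicate 2. Dhx58, which also fell, had no promoter to search, and a link between the repeats and the fall was not tested. The 150 bases that hold the matches, 100 before and 50 after the start, are shown in the direction of transcription with the matches in capitals. The windows are chr4:40239776-40239925 (minus strand) for Ddx58, chr2:62646206-62646355 (minus strand) for Ifih1, chr17:78882523-78882672 (minus strand) for Eif2ak2 and chr3:89730618-89730767 (plus strand) for the third start site of Adar, which lies inside the gene.
Ddx58: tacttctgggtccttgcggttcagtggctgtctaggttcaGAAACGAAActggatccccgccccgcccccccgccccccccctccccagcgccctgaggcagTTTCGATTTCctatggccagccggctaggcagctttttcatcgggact
Ifih1: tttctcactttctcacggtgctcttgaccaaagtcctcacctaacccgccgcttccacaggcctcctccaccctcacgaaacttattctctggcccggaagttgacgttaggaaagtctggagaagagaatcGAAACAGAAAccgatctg
Eif2ak2: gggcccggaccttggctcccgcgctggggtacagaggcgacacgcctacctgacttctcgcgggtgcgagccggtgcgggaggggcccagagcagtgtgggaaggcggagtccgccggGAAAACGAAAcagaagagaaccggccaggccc
Adar: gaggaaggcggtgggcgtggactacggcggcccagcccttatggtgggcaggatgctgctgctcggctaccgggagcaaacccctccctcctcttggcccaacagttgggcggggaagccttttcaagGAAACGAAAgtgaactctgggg

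Ddx58 was the only one of these genes with both repeats, at positions -60 and 3 (the start base counts as 1), and they do not overlap. The repeat lay just after the start in Ifih1 (position 33), Eif2ak2 (position 19) and Adar (position 29). In the windows of Tlr3, Mavs, Tbk1 and Irf3 these letters were not found. GCGTG was found in 32.4% of all promoters. Of the 8 genes with a promoter to search, it occurred in Ddx58, Eif2ak2, Adar, Mavs, Tbk1 and Irf3. In Adar it was found at each of the 3 start sites, and Tbk1 had 3 matches. It was not in the windows of Ifih1 and Tlr3. The share of all promoters counts promoters, not genes. A match of letters is a description and shows no binding.

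**Figure D2:**
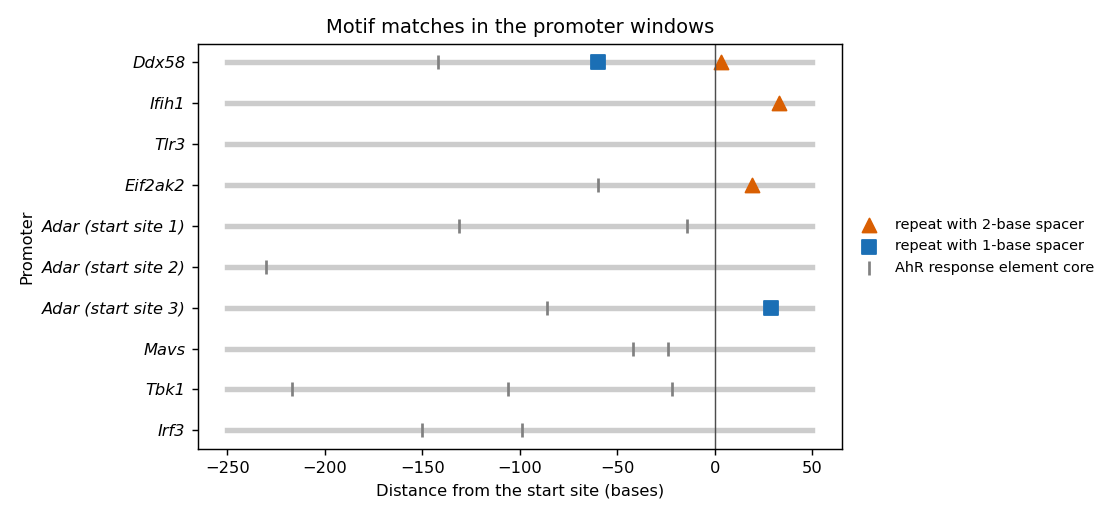
Positions of the motif matches relative to the start site (bases) in the 10 promoter windows of 8 genes. Triangles and squares are GAAA repeats with a spacer of 2 bases or 1 base, and gray ticks are the core of the AhR response element. The GAAA repeats occur in Ddx58, Ifih1, Eif2ak2 and the third start site of Adar, close to the start.

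RIG-I, encoded by Ddx58, recognises short RNA with a 5′ triphosphate. The Ddx58 gene (chromosome 4, 40203773 to 40239828, GRCm38) had an FPKM of 44.5, 24.8 and 39.3 in control replicates 1, 2 and 3, and of 14.9, 15.9 and 16.7 in PM2.5 replicates 1, 2 and 3. All PM2.5 libraries lay below all control libraries, and control replicate 2 was the nearest of the controls. The control mean was 36.2 ± 10.2 (SD, n = 3) and the PM2.5 mean was 15.8 ± 0.906 (SD, n = 3), a ratio of 0.438. The corresponding log2 fold change was -1.10 (standard error, SE, 0.26, limma adjusted p = 0.5998). Ddx58 fell when control replicate 2 was left out, with a log2 fold change of -1.35 (SE 0.10, limma adjusted p = 0.0149).

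MDA5, encoded by Ifih1, binds long double-stranded RNA. Ifih1 (chromosome 2, 62595798 to 62646255) was expressed at a lower level than Ddx58, with an FPKM of 15.1, 6.95 and 13.9 in the control libraries, against 4.52, 5.39 and 5.55 in the PM2.5 libraries. Its groups did not overlap, although control replicate 2 lay closer to the PM2.5 libraries than to the other controls. The log2 fold change was -1.02 with all libraries (SE 0.31, limma adjusted p = 0.875). Ifih1 fell when control replicate 2 was left out, with a log2 fold change of -1.34 (SE 0.12, limma adjusted p = 0.0185). Within a library, the level of Ifih1 followed that of Ddx58. The ratio of the FPKM of Ifih1 to that of Ddx58 was 0.339, 0.280 and 0.355 in the control libraries, against 0.303, 0.339 and 0.332 in the PM2.5 libraries. Its mean was 0.325 in each group, and control replicate 2 gave the lowest ratio.

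LGP2, encoded by Dhx58, lacks the signaling domains of its relatives and tunes their activity. Dhx58 (chromosome 11, 100694884 to 100704271) had the largest difference of the 10 genes, with an FPKM of 24.4, 47.7 and 20.5 in the control libraries, against 3.95, 4.69 and 5.29 in the PM2.5 libraries. In contrast to Ddx58 and Ifih1, control replicate 2 was the highest library here. The ratio of the group means was 0.151, and 0.207 without control replicate 2. The log2 fold change was -2.41 with all libraries (SE 0.34, limma adjusted p = 0.153), the rank 31 by p-value of all genes tested. Without control replicate 2, Dhx58 fell with a log2 fold change of -2.06 (SE 0.15, limma adjusted p = 0.0117). Set against Ddx58 in the same library, Dhx58 had a ratio of 0.548, 1.92 and 0.522 in the control libraries, against 0.265, 0.295 and 0.317 in the PM2.5 libraries. Dhx58 was therefore lower in the PM2.5 group also relative to Ddx58, in every library. Dhx58 shares 141 exonic bases with the antisense gene Dhx58os, which had an FPKM of 1.15 to 6.38.

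PKR, encoded by Eif2ak2, is a kinase that is activated by double-stranded RNA and stops translation by phosphorylating eIF2α. Eif2ak2 (chromosome 17, 78852564 to 78882573) had the highest mean level among the sensors in the control group, with an FPKM of 53.8, 27.3 and 48.8, against 20.9, 22.1 and 23.2 in the PM2.5 group. The groups did not overlap, and the gap was narrow at control replicate 2. With all libraries the log2 fold change was -0.89 (SE 0.29, limma adjusted p = 0.875). Eif2ak2 fell when control replicate 2 was left out, with a log2 fold change of -1.18 (SE 0.10, limma adjusted p = 0.0185). Relative to Ddx58, Eif2ak2 was slightly higher in the PM2.5 group, with ratios between 1.39 and 1.40 against 1.10 to 1.24 in the control group.

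ADAR1, encoded by Adar, edits adenosine to inosine in double-stranded RNA and so keeps the cell's own RNA from triggering MDA5 and PKR. Adar (chromosome 3, 89715022 to 89753446) had an FPKM of 19.9, 8.91 and 18.2 in the control libraries, against 10.3, 9.77 and 7.17 in the PM2.5 libraries. Control replicate 2 lay within the range of the PM2.5 libraries, and the other controls lay above all of them. For Adar the log2 fold change was -0.67 (SE 0.34, limma adjusted p = 0.875), and -1.005 (SE 0.17, limma adjusted p = 0.0877) without control replicate 2. The files give 1 value per gene, so the interferon-inducible long form and the constitutive short form were not separated. Of the exonic bases of Adar, 16.8% overlap Chrnb2 on the opposite strand. Chrnb2 had an FPKM of at most 0.271.

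Tlr3 and Zbp1 complete the sensors. TLR3 binds double-stranded RNA in endosomes rather than in the cytosol. Tlr3 (chromosome 8, 45395665 to 45411080) had an FPKM of 8.92, 3.61 and 8.20 in the control libraries, against 3.47, 3.84 and 5.07 in the PM2.5 libraries. As for Adar, control replicate 2 lay among the PM2.5 libraries, and the groups separated only without it. For Tlr3 the log2 fold change was -0.56 (SE 0.34, limma adjusted p = 0.875), and -0.91 (SE 0.16, limma adjusted p = 0.0953) without control replicate 2.

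ZBP1 binds nucleic acids in the Z conformation and can start necroptosis through RIPK3. Zbp1 (chromosome 2, 173206612 to 173218923) had the lowest level of the 10 genes, counting 101, 207 and 70 reads among the controls but 22, 30 and 26 reads after PM2.5 exposure. In FPKM this was 1.54, 4.52 and 1.10 against 0.349, 0.479 and 0.408, and the groups did not overlap. Zbp1 reached the mean FPKM of at least 1 that was required for testing because of the high control replicate 2, as its mean was 0.776 over the other 5 libraries. Its log2 fold change was -1.13 (SE 0.39, limma adjusted p = 0.875), and -0.71 (SE 0.14, limma adjusted p = 0.113) without control replicate 2. The added constant of 1 understates the change of such a low gene. With a constant of 0.1 and without control replicate 2, the log2 fold change was -1.46 (SE 0.30, limma adjusted p = 0.126), and on the recovered reads it was -1.66 (SE 0.29, limma voom adjusted p = 0.0757).

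**Figure D3:**
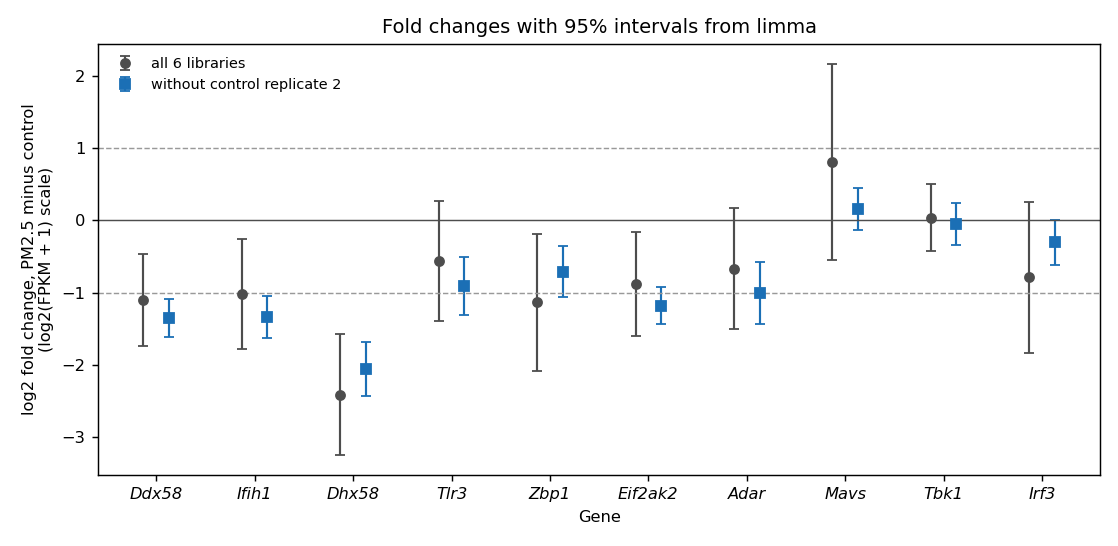
Log2 fold change of each gene on the log2(FPKM + 1) scale, PM2.5 minus control, with its 95% interval from limma. Gray circles are the fit with all 6 libraries and blue squares the fit without control replicate 2; dashed lines mark an absolute log2 fold change of 1. Without control replicate 2 the intervals of Ddx58, Ifih1, Dhx58, Tlr3, Eif2ak2 and Adar lay below 0, and those of Mavs, Tbk1 and Irf3 included 0. Zbp1 is drawn as well, although it passed the filter only through its control libraries.

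Of the 3 signaling genes, 0 were differentially expressed and 0 had an unadjusted p-value under 0.05 in limma, with or without control replicate 2. MAVS is the adaptor on the outer mitochondrial membrane through which RIG-I and MDA5 signal. Mavs (chromosome 2, 131234063 to 131248025) had an FPKM of 11.0, 2.14 and 11.3 in the control libraries, against 13.6, 13.2 and 11.2 in the PM2.5 libraries. Control replicate 2 was far below all other libraries, and PM2.5 replicate 3 lay between control replicates 1 and 3. For Mavs the log2 fold change was 0.81 (SE 0.56, limma adjusted p = 0.875) with a 95% interval from -0.55 to 2.17. When control replicate 2 was left out it was 0.16 (SE 0.11, limma adjusted p = 0.541), with an interval from -0.13 to 0.45.

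TBK1 is the kinase on which the RNA and DNA sensing pathways converge. Tbk1 (chromosome 10, 121546455 to 121586787) varied least, with an FPKM of 26.3, 21.3 and 24.6 in the control libraries, against 24.0, 22.7 and 27.4 in the PM2.5 libraries. The groups overlapped, and control replicate 2 differed little from the rest. For Tbk1 the log2 fold change was 0.04 (SE 0.19, limma adjusted p = 0.952), with a 95% interval from -0.43 to 0.51, and the interval was -0.33 to 0.25 without control replicate 2.

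IRF3 is the transcription factor that TBK1 activates, and it is regulated mainly by phosphorylation. Irf3 (chromosome 7, 44997648 to 45002848) had an FPKM of 5.62, 18.5 and 6.57 in the control libraries, against 4.49, 5.34 and 4.44 in the PM2.5 libraries. All PM2.5 libraries lay below all control libraries, narrowly so for control replicate 1. For Irf3 the log2 fold change was -0.79 (SE 0.43, limma adjusted p = 0.875) and became -0.30 (SE 0.12, limma adjusted p = 0.328) without control replicate 2, with an interval from -0.61 to 0.01. Irf3 shares 88 exonic bases with Bcl2l12 on the opposite strand, and the sources used here do not state whether reads were counted by strand.

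Control replicate 2 did not move the 10 genes in a common direction. Relative to the mean FPKM of the other controls it was 3.42 times as high for Zbp1, 3.03 times for Irf3 and 2.12 times for Dhx58. For the remaining 7 genes it was lower, from 0.836 times for Tbk1 to 0.192 times for Mavs. On the log2(FPKM + 1) scale the median absolute difference was 1.03 for the 10 genes and 0.81 for all genes tested.

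The order of the levels within a group differed as well. In control replicates 1 and 3 the order of FPKM from the top was Eif2ak2, Ddx58, Tbk1, Dhx58, Adar, Ifih1, Mavs, Tlr3, Irf3 and Zbp1, and the ranges of neighbours did not overlap. With control replicate 2 included, Tbk1 and Adar were the only neighbours whose ranges did not overlap. In the PM2.5 group Tbk1 came first with a mean of 24.7 ± 2.41 (SD, n = 3), beside Eif2ak2 at 22.1 ± 1.17 (SD, n = 3), and these did not separate. Ddx58, Mavs and Adar followed in this order, each apart from its neighbours. Ifih1, Irf3, Dhx58 and Tlr3 came next and each overlapped its neighbour in the order, and Zbp1 was last. Relative to Ddx58 in the same library, Tbk1 had a ratio of 0.591 to 0.857 in the control group and of 1.43 to 1.64 in the PM2.5 group. For Mavs this ratio was 0.0864 to 0.288 and 0.668 to 0.910. Mavs and Tbk1 were thus higher relative to the sensor Ddx58 in every PM2.5 library than in any control library, with and without control replicate 2. The same held for the sensors Tlr3 (0.146 to 0.209 and 0.233 to 0.303) and Eif2ak2, whereas Dhx58 went the other way. A gene that keeps its level rises relative to a lower Ddx58, and the ratio was not computed for all genes.

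**Figure D4:**
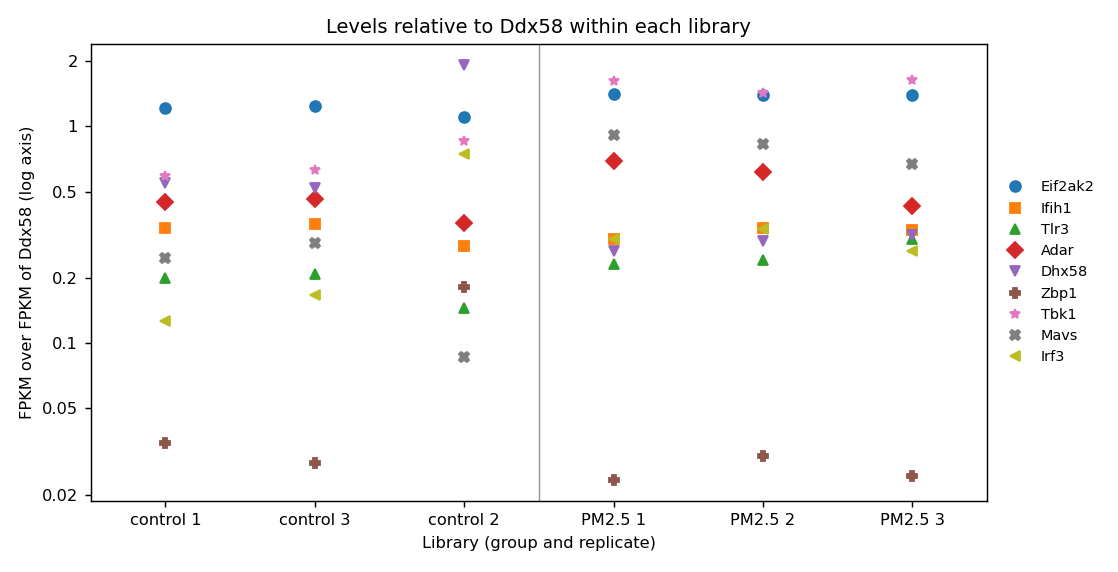
FPKM of 9 genes over the FPKM of Ddx58 in the same library (log axis), for the 3 control and the 3 PM2.5 libraries. The ratio of Ifih1 stayed between 0.280 and 0.355 in all 6 libraries, whereas that of Mavs was 0.0864 to 0.288 in the control group and 0.668 to 0.910 in the PM2.5 group.

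Dhx58, the gene with the largest fold change, was compared with all other genes tested by Pearson's r of log2(FPKM + 1) over the 6 libraries, as a description. The 5 most similar genes were Sp100 (r = 0.998), Apold1 (0.998), Ifit1 (0.997), Mx2 (0.995) and Mir7025 (0.995). These points share libraries, and the high control replicate 2 weighs heavily in each r. Mx2, Apold1 and Mir7025 had an FPKM under 1 in every PM2.5 library, so they passed the filter only through their control libraries. As all 5 genes were picked for their likeness to Dhx58, their lower PM2.5 levels carry no weight of their own. Mx2, an antiviral GTPase, had an FPKM of 4.95, 11.8 and 4.205 in the control libraries, against 0.573, 0.639 and 0.597 in the PM2.5 libraries. Sp100, a nuclear body protein, had 8.51, 11.9 and 7.68 against 2.64, 3.07 and 3.08. Mir7025 rested on 2, 3 and 2 reads in control replicates 1, 2 and 3 and 0 reads in each PM2.5 library, which is at or under the detection limit.

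The rest of the pathway was described with a list of 108 genes in 7 roles, of which 107 were in the files and 87 passed the filter on mean FPKM. With all libraries, 0 of the 87 genes were differentially expressed in limma, and 9 had an unadjusted p-value under 0.05, 7 of them lower and 2 higher, against 1.88% and 1.92% of all genes. The median log2 fold change was 0.06, near that of all genes (0.02). Without control replicate 2, 6 genes fell, against 0.547% of all genes, and 0 rose in limma. At an unadjusted p-value under 0.05, 12 were then lower and 7 higher, against 7.63% and 8.23% of all genes. The genes that fell were Isg15, Ifit1, Irf7, Cxcl10, Trim30a and Ddx60. The last of these passed the filter only through its control libraries, and 5 of the other 86 genes fell. At an unadjusted p-value under 0.05 in limma, 6 of these 86 genes were lower with all libraries and 11 without control replicate 2.

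The interferon ligands themselves were hardly detected. Of the 7 ligand genes in the list, 0 passed the filter and 5 had 0 reads in every library. Ifnb1, the ligand that IRF3 switches on directly, had 0, 8 and 2 reads in control replicates 1, 2 and 3 and 2, 0 and 0 reads in the PM2.5 libraries, so that a difference was not detectable at this depth. In contrast, 4 of the 5 tested output genes of IRF3 and IRF7 fell without control replicate 2, against 0.547% of all genes. With all libraries 0 of the 5 fell, against 0.0589% of all genes. Isg15, a ubiquitin-like modifier, had an FPKM of 361, 1944 and 302 in the control libraries, against 59.3, 59.3 and 64.3 in the PM2.5 libraries. Its log2 fold change was -3.27 with all libraries (SE 0.72, limma adjusted p = 0.538) and -2.42 without control replicate 2 (SE 0.12, limma adjusted p = 0.00757). Ifit1, which binds viral RNA ends, had an FPKM of 71.3, 243.8 and 60.1 against 6.89, 8.74 and 11.4. The transcription factor Irf7 had 31.04, 140 and 24.8 against 7.71, 8.39 and 5.69. For all 3 genes the highest library was control replicate 2, as for Dhx58, and the groups did not overlap. For the chemokine Cxcl10 the controls were alike, with an FPKM of 102, 97.8 and 91.5 against 21.7, 24.1 and 34.97, and the log2 fold change was -1.84 with all libraries (SE 0.24, limma adjusted p = 0.121) and -1.83 without control replicate 2 (SE 0.22, limma adjusted p = 0.0450). Of the 31-base sequences of Isg15 and Ifit1, 12.8% and 10.5% also occur in other genes.

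Among 13 tested genes for other RNA sensors and helicases, the helicase Ddx60 fell without control replicate 2, from an FPKM of 2.95, 2.25 and 2.17 in the control libraries to 0.284, 0.214 and 0.376 in the PM2.5 libraries (log2 fold change -1.46, SE 0.15, limma adjusted p = 0.0275). Because its PM2.5 mean lay under 1, the filter admitted Ddx60 through the control group alone, so its call carries no weight in the count. With all libraries the log2 fold change of Ddx60 was -1.42 (limma adjusted p = 0.136). The added constant of 1 understates this change, as for Zbp1. Without control replicate 2 and with a constant of 0.1 it was -2.77 (limma adjusted p = 0.0423). On the recovered reads without that library it was -3.14 (limma voom adjusted p = 0.0133). Zyx, which encodes a focal adhesion protein, had the largest positive value of this role with all libraries, at 0.91 (limma adjusted p = 0.875). This value was 0.60 without control replicate 2 (limma adjusted p = 0.388), and the groups of Zyx overlapped in both cases. The other endosomal receptors of nucleic acids, Tlr7, Tlr8, Tlr9 and Tlr13, had at most 16 reads in a library.

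Among 10 tested activators of the RIG-I-like receptors, 0 were differentially expressed in either fit. The log2 fold change was negative for 4 of them with all libraries and for 7 without control replicate 2. In both limma fits 1 of the 10, Trim25, had an unadjusted p-value under 0.05, with a lower level. A lower level at such a p-value was found for 1.88% of all genes with all libraries and 7.63% without control replicate 2. TRIM25 is a ubiquitin ligase that helps to activate RIG-I. Trim25 had an FPKM of 45.9, 37.3 and 41.6 in the control libraries, against 24.0, 26.5 and 21.3 in the PM2.5 libraries, and the groups did not overlap. Its log2 fold change was -0.77 (SE 0.20, limma adjusted p = 0.697), and -0.85 (SE 0.12, limma adjusted p = 0.0652) without control replicate 2. Ppp1ca, a phosphatase subunit, had the largest positive value of this role with all libraries, at 0.80 (limma adjusted p = 0.875). This value was 0.26 without control replicate 2 (limma adjusted p = 0.590).

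Of the 17 tested inhibitors, Trim30a fell without control replicate 2, with an FPKM of 23.1, 2.74 and 19.5 in the control libraries, against 4.60, 4.88 and 6.26 in the PM2.5 libraries. Control replicate 2 was the lowest of all libraries. The log2 fold change was -0.98 (SE 0.72, limma adjusted p = 0.875) and became -1.84 (SE 0.15, limma adjusted p = 0.0185) without that library. Other genes share 11.7% of its 31-base sequences. Tnfaip3, which encodes the ubiquitin-editing enzyme A20, had the largest positive value of this role with all libraries, at 0.89 (limma adjusted p = 0.875). This value was 0.42 without control replicate 2 (limma adjusted p = 0.128).

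In the other roles 0 genes were differentially expressed in either limma fit. Among 12 tested genes of cytosolic DNA sensing, 0 had an unadjusted p-value under 0.05 with all libraries and 2, both lower, without control replicate 2 (7.63% of all genes). Cgas, the sensor that makes the messenger cGAMP, had an FPKM of 12.1, 4.75 and 13.9 in the control libraries, against 10.2, 9.41 and 11.7 in the PM2.5 libraries, and its log2 fold change turned from 0.13 to -0.29 without control replicate 2. For Rnaseh2a, a subunit of the enzyme that removes RNA from RNA and DNA hybrids, it was -0.77 with all libraries and -0.15 without control replicate 2. The 18 tested adaptors, ubiquitin ligases and kinases had a median log2 fold change of 0.20 and of -0.04 without control replicate 2. At an unadjusted p-value under 0.05, 2 of them were higher with all libraries (1.92% of all genes) and 3 without control replicate 2 (8.23%). The extremes with all libraries were the kinase subunit gene Ikbkg (0.56, limma adjusted p = 0.875) and the adaptor gene Myd88 (-0.45, limma adjusted p = 0.875). Without control replicate 2 their values were 0.42 and -0.19. For the 12 tested partners of PKR and ADAR the medians were 0.03 and -0.04, and Ppp1r15a, a regulatory subunit of a phosphatase that acts on eIF2α, had the largest negative value at -0.48. It was 0.29 without control replicate 2, where 1 gene of the role was lower (7.63% of all genes) and 1 higher (8.23%) at an unadjusted p-value under 0.05, against 0 genes with all libraries.

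**Figure D5:**
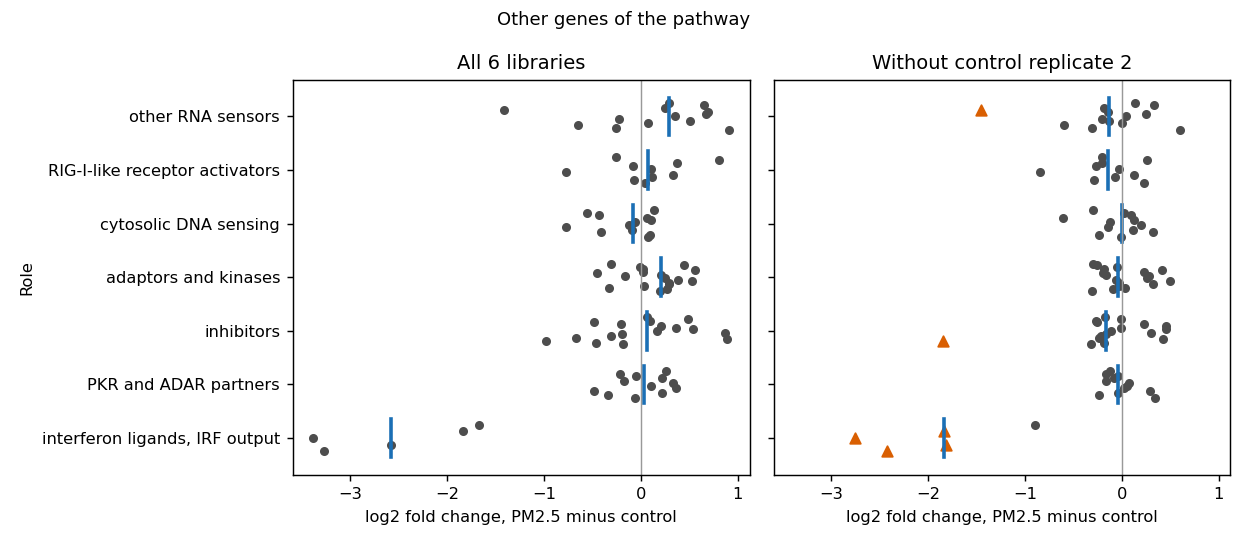
Log2 fold change (PM2.5 minus control, log2(FPKM + 1) scale) of the 87 tested pathway genes by role, with all 6 libraries (left) and without control replicate 2 (right). Gray points are single genes, orange triangles the genes that were differentially expressed in the fit shown (0 on the left, 6 on the right), and blue lines the median of a role. The interferon output genes had a median of -2.58 on the left and -1.83 on the right, and the other roles had medians between -0.17 and 0.29.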

How the data were processed

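RNA was sequenced from 3 control and 3 PM2.5 libraries. According to the study, the authors used a NEBNext Ultra kit and paired-end Illumina reads, and tested genes with DESeq2, which was not run here. The submitters' processing notes name HISAT2 2.0.5, featureCounts 1.5.0-p3 and mm9. The authors deposited FPKM per gene and library, which carry no counts. Positions and exon lengths were taken from GENCODE M21 (GRCm38) by gene identifier, and no mm9 coordinate was used. Each FPKM times the exon length was a whole multiple of the worth of 1 read (within 0.05 reads, for values under 50 reads) for 98.1% to 98.4% of values, which gave the reads. The deposited scaling between libraries was kept. The read total that it implies was 0.80 times the recovered total in control replicate 2 and 1.03 to 1.05 times in the other libraries. The FPKM of control replicate 2 are thus higher, relative to the other libraries, than scaling to the recovered total would give.

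Expression was tested with limma 3.58.1 (trend and robust, R 4.3.3) on log2(FPKM + 1). A gene entered the fit if its FPKM averaged 1 or more across the libraries (11884 genes, including all 10). The same 11884 genes were kept when a library was left out, although 9 of the 10 genes would pass on the libraries other than control replicate 2 (Zbp1 would not). No exact permutation test of genes under the filter was run. P-values were adjusted by Benjamini-Hochberg over all genes tested. The computations were tested on simulated data. The 10 genes, the pathway list and the markers were chosen with earlier results of these data known. Pathway genes were named if differentially expressed, or if they had the largest positive or negative fold change of their role, and 1 such gene is not reported here. Cell type markers checked the label of the cells. Other filters, pseudocounts, scalings, a replicate block, voom and leaving out each library were tried.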

Additional observations from a re-analysis of the deposited data

How the results depend on the processing

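Ddx58, Ifih1, Dhx58 and Eif2ak2 passed the threshold only when control replicate 2 was left out. With all libraries their log2 fold changes were -1.10, -1.02, -2.41 and -0.89, and their groups did not overlap. The number of the 10 genes that were differentially expressed was 0 with all libraries (5 at an unadjusted p-value under 0.05 in limma, Zbp1 included, and 5 in voom) and ranged from 0 to 4 when each library was left out in turn. It was 4 without control replicate 2, also with a pseudocount of 0.1, with voom or with no fold change threshold, alternatives that were chosen after the data were seen. The pathway list gave 0 to 6 with each library left out, and 6 under each of those 3 alternatives. The number over all genes was 11 (4 higher, 7 lower). It was 0 without a filter (875 genes at an unadjusted p-value under 0.05), 0 with voom (423) and 0 with the replicate block (335), and 0 to 84 with each library left out, with 84 only without control replicate 2. Without control replicate 2 it was 91 with a pseudocount of 0.1, 108 with voom and 118 with no fold change threshold. Scaling to the recovered total reads gave 6 (3 higher, 3 lower) and moved the median of all genes by 0.11. In the fit without control replicate 2, the spread within the control group rests on 2 libraries.

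Of the 150 log2 fold changes of the 10 genes under the alternatives, 4 changed sign, all of them for Tbk1, with -0.045 without control replicate 2, -0.046 without it at a pseudocount of 0.1, -0.046 without it in voom and -0.036 without PM2.5 replicate 3. Its range over libraries left out was -0.045 to 0.10. Without control replicate 2 the sign also changed for Cgas (range over libraries left out -0.29 to 0.39) and Ppp1r15a (-0.87 to 0.29). The log2 fold change of Dhx58 stayed between -2.65 and -2.06, with adjusted p-values from 0.00694 to 0.988. Why these values moved was not tested.

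Both groups carry replicate numbers 1 to 3. Correlating the deviations from the group mean across same-numbered control and PM2.5 libraries gave -0.28, 0.18 and 0.25. Of 3 control libraries, 1 was closest to its own number. Control replicate 2 stood apart, so control replicates 1 and 3 deviated alike (0.29 and 0.25 with PM2.5 replicate 3). The check therefore cannot decide whether the numbers mark pairs, and they were not taken as pairs. With the replicate block 0 of the 10 genes and 0 of the pathway genes were differentially expressed (5 and 7 at an unadjusted p-value under 0.05 in limma).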
